A study of Mus musculus with 9 samples.

Results

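Small nucleolar RNAs (snoRNAs), the related small Cajal body RNAs and the small nucleolar RNA host genes were taken from the array by name. A probe set was a member when any of its platform gene symbols began with Snora, Snord, Scarna or Snhg and a number. This gave 79 of 24922 probe sets, with 72 distinct symbol entries, and 67 of them passed the filter that left out the dimmest 30% of probe sets by mean over all arrays. The box H/ACA class (Snora) had 22 probe sets, of which 21 passed. The box C/D class (Snord) had 32, of which 24 passed. All 3 Cajal body sets (Scarna) and all 4 host gene sets (Snhg) passed. The remaining 18 sets, of which 15 passed, carried symbols of several classes or of a member and another gene, and are called mixed. Just under the filter lay Snord87 at a geometric mean intensity of 34.4 and Snord7 with AI450353 at 40.9, and just above it Snord96a at 44.8 and the set of Mir1291 and Snora34 at 45.9.

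The study set skin innate lymphoid cells (ILCs) that use the chemokine receptor gene Ccr10 against those that do not, in mice lacking or carrying Rag1, a recombinase that B and T cells need for antigen receptors. Each of 9 Affymetrix arrays held 1 sorted sample: Rag1-/- GFP+ (n = 2), Rag1-/- GFP- (n = 3), Rag1-sufficient GFP+ (n = 2) and Rag1-sufficient GFP- (n = 2). All mice were B6 females with EGFP at one Ccr10 allele, which marks cells that use the gene, and their ages were not given. Cells were sorted as CD45.2+, CD3- and negative for a lineage panel that names no mast cell marker. No label states that replicates are separate mice or whether mice were pooled, so each p-value reflects the variation among the arrays alone, part of which may be technical. The ILC markers Id2 and Il7r were bright on every array (6727 to 7905 and 2566 to 3806 intensity units).

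SnoRNAs are short RNAs of the nucleolus that pair with ribosomal RNA. Box H/ACA members guide the change of uridine to pseudouridine and box C/D members guide 2′-O-methylation, while a few of either class help to cut the ribosomal RNA precursor. Cajal body RNAs do the same for spliceosomal RNAs. In mammals most are cut out of introns, either of protein-coding genes, many of them for ribosomal proteins and nucleolar factors, or of host genes whose spliced RNA encodes no protein. A box H/ACA RNA is bound by dyskerin, Nop10, Nhp2 and Gar1, and a box C/D RNA by fibrillarin, Nop56, Nop58 and Snu13.

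Stretches of 3 box H/ACA members of the mixed sets follow, marked where letters match the elements that define the class. RefSeq (GRCm38.p6) holds them as microRNA hairpins that overlap the snoRNA. Of these only the Snora34 set passed the filter, and Snora36b and Snora19 were dim. Capitals mark the letters of the hinge box (ANANNA) in Snora34 and the ACA that stands 3 bases before the 3′ end in the others. Snora36b and Snora19 hold 5 and 4 unmarked matches to ANANNA. Whether any match is the hinge box of the folded RNA was not checked.
Snora34 stretch, chr15:98519762-98519834 (-): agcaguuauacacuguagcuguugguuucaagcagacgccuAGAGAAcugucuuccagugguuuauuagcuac
Snora36b stretch, chr1:185242975-185243038 (+): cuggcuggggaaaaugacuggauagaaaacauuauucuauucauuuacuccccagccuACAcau
Snora19 stretch, chr19:60774330-60774385 (-): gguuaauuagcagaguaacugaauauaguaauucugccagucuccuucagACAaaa
Of all 1005 hairpins in that table, 16 (1.59%) had an ACA at this place and 574 (57.1%) held ANANNA somewhere, both read on the RNA strand, so the letters ANANNA alone set no class apart.

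The starts of 6 host genes are shown next, each the host of a box H/ACA RNA with negative gate differences in both genotypes, because many snoRNA hosts belong to the terminal oligopyrimidine class of genes, whose RNAs begin with a run of pyrimidines. Each is read 5′ to 3′ from 20 bases before the RefSeq start to 50 bases from it, on GRCm38.p6, with CTTTC or CTTTT in capitals.
Ncl, chr1:86359406-86359475 (-): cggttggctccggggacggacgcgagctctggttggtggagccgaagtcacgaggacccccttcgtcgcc
Snhg3, chr4:132353637-132353706 (-): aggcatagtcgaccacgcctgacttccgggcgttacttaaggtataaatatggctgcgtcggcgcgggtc
Snhg12, chr4:132308658-132308727 (+): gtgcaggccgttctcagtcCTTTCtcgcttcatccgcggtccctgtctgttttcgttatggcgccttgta
Rpl27a, chr7:109519175-109519244 (+): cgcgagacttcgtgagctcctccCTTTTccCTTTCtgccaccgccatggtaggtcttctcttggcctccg
Rps12, chr10:23787160-23787229 (-): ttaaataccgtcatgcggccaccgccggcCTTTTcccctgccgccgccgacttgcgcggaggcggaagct
Rpl39, chrX:37085173-37085242 (-): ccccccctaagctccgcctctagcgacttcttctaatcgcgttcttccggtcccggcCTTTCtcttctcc
On the gene's strand CTTTC or CTTTT stood in this window in 20 of 46 promoters of 44 host genes (43.5%) and in 5011 of 32851 promoters of all genes (15.3%). On the other strand they stood in 2 (4.35%) and 4810 (14.6%). A match describes letters in the window only.

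Box H/ACA RNAs gave mostly lower signals in GFP+ than in GFP- cells, in both genotypes. In Rag1-sufficient mice 19 of the 21 probe sets had a negative GFP+ minus GFP- difference, against 46.4% of all tested probe sets, and their median was -0.72 on the log2 scale against 0.01 for all. Of these, 2 passed the test, Snora75 and Snora74a, both lower (limma, adjusted over all probe sets). Over all probe sets 0.470% were called lower and 0.332% higher, and 0 members were higher. In Rag1-/- mice 19 of 21 were again negative, against 52.0% of all, with a median of -0.53 against -0.01, and 0 passed in limma, as for every tested probe set (0% called), while 11 of 21 had an unadjusted p under 0.05 with GFP+ lower (4.79% of all sets). In these bulk samples, fewer cells of a type and less RNA per cell cannot be told apart.

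The differences in the 2 gate comparisons were taken from no array in common. Differences were below 0 in both for 17 of 21 box H/ACA sets (81%), for 14 of 24 box C/D sets (58.3%) and for 20.1% of all tested sets. Groups did not overlap, with GFP+ below GFP-, in both genotypes for 10 box H/ACA sets (47.6%), 2 box C/D sets (8.33%) and 2.18% of all. An unadjusted p under 0.05 with GFP+ lower in both was reached by 7 box H/ACA sets (33.3%), by 0 box C/D sets and by 0.504% of all. The 2 p-values of a probe set were not independent, because both used the same residual variance, estimated over all arrays. A small variance therefore lowered both, so these counts are not those of separate tests. The 21 box H/ACA sets carry 19 distinct symbols, and both sets of Snora3, with nearly the same values, are among these 7.

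**Figure D1:**
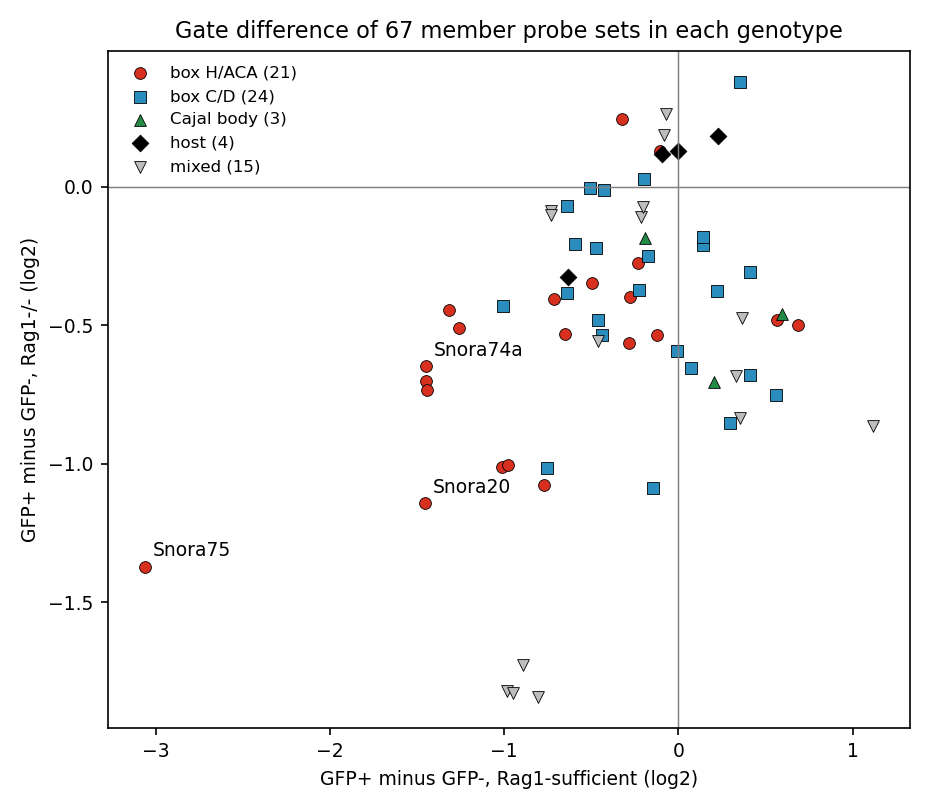
Each point is a probe set that passed the filter, placed by its GFP+ minus GFP- difference (log2) in Rag1-sufficient mice on the x axis and in Rag1-/- mice on the y axis, with colours for the classes. Of the 21 box H/ACA points 17 lie below 0 on both axes.

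Snora75, a box H/ACA RNA that lies within the span of the nucleolin gene Ncl, had the largest difference of the class. Its signal was 53.2 and 80.3 intensity units in Rag1-sufficient GFP+ cells, against 622 and 492 in Rag1-sufficient GFP- cells. Both GFP+ arrays lay far below both GFP- arrays, and Snora75 fell by 3.06 ± 0.42 on the log2 scale (SE), an 8.35-fold lower signal (limma, adjusted p = 0.0182). The Rag1-/- values were 212 and 79.5 in GFP+ cells, against 283, 429 and 317 in GFP- cells. The groups again did not overlap, but GFP+ replicate 1 stood near the GFP- arrays, and the difference of -1.37 ± 0.38 did not pass (limma, adjusted p = 0.688). Without Rag1-/- GFP+ replicate 1 the difference was -2.07, and without replicate 2 it was -0.67.

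Mast cell markers were lower in GFP+ cells as well. Of 12 measured markers 9 passed the filter, and 9 of 9 were below 0 in Rag1-sufficient mice, with a median of -2.30. Of these 7 passed the test (Tpsb2, Mrgprb1, Cyp11a1, Cma1, Hdc, Ms4a2 and Kit), with differences of -3.46 for Mrgprb1 to -1.38 for Kit. In Rag1-/- mice 9 of 9 were below 0, with a median of -0.77, 0 called by limma and 6 at an unadjusted p under 0.05. The summed intensity of all 12 was 945 and 1028 in Rag1-sufficient GFP+ samples, against 10560 and 10739 in Rag1-sufficient GFP- samples. The Rag1-/- sum was 4919 and 1384 in GFP+ samples, against 6161, 4857 and 4852 in GFP- samples. Within the GFP+ pair of each genotype the array with more Snora75 had the larger sum. Within both GFP- groups the order was not the same. Rag1-/- GFP- replicate 1 had the lowest Snora75 of its group and the largest sum. The Rag1-sufficient GFP- array with more Snora75 had the smaller sum, though these sums were close (10560 and 10739). The markers Tpsab1, Mrgprb2 and Fcer1a were under the filter, and Cpa3, a mast cell protease, was read at 2085 and 19.9 on the Rag1-/- GFP+ arrays. Keratinocyte markers were below 0 for 9 of 9 in both genotypes, with medians of -0.63 in Rag1-sufficient and -0.25 in Rag1-/- mice. Limma called 0 of them, and 2 and 0 had an unadjusted p under 0.05. Their sum was 2970 and 2505 in Rag1-sufficient GFP+ samples, against 2921 and 4642 in GFP- samples. Of 10 macrophage and dendritic cell markers 7 passed the filter, with 5 of 7 below 0 and a median of -0.56 in Rag1-sufficient mice and a median of 0.06 in Rag1-/- mice. Of these Xcr1, a dendritic cell receptor, fell by 0.78 in Rag1-sufficient GFP+ cells (limma, adjusted p = 0.0084). The sum of the 10 was 515 and 508 in Rag1-sufficient GFP+ samples, against 632 and 697 in GFP- samples. T cell markers (7 past the filter) had medians of 0.13 in Rag1-sufficient and 0.08 in Rag1-/- mice, and fibroblast markers (6) of -0.13 and 0.14. Limma called 0 of either list between the fractions. The T cell sum was 2523 and 2162 in Rag1-sufficient GFP+ samples, against 1660 and 1731 in GFP- samples. In Rag1-/- mice it was 3021 and 5964 in GFP+ samples, against 4054, 4032 and 6286 in GFP- samples. The part of RNA from any of these cell types in the snoRNA differences was not tested.

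Nucleolin, a protein that binds ribosomal RNA precursors, is encoded by the gene that holds Snora75, and its own set differed little. Ncl was read at 630 and 679 in Rag1-sufficient GFP+ cells, against 676 and 679 in GFP- cells, a difference of -0.05 ± 0.18 (limma, adjusted p = 0.962). Its Rag1-/- values were 593 and 703 in GFP+ cells, against 681, 636 and 850 in GFP- cells, a difference of -0.15 ± 0.17 (limma, adjusted p = 0.785). Snord82, a box C/D RNA within the same gene, differed by -0.22 ± 0.21 in Rag1-sufficient mice (limma, adjusted p = 0.777) and by -0.37 ± 0.20 in Rag1-/- mice (limma, adjusted p = 0.688). Its GFP+ values were 1939 and 1518 in Rag1-sufficient mice, against 2055 and 1954 in GFP- cells.

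**Figure D2:**
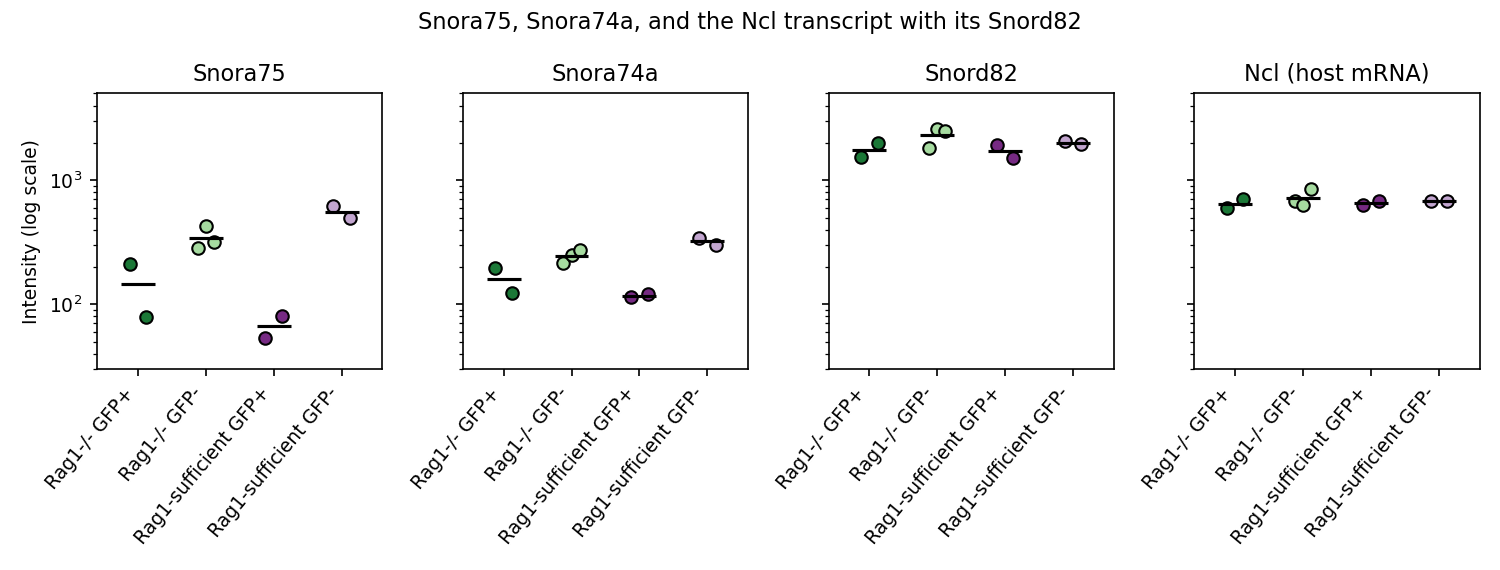
Intensity (log scale) of Snora75, Snora74a, Snord82 and Ncl, with 1 point per array, a line at each group's mean and GFP+ left of GFP- in each genotype. Snora75 spans 53.2 to 622, while Ncl stays between 593 and 850.

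Snora74a, a box H/ACA RNA within the host gene Snhg4, was the other member called. It was read at 114 and 120 in Rag1-sufficient GFP+ cells, against 341 and 303 in GFP- cells, and fell by 1.45 ± 0.22, a 2.73-fold lower signal (limma, adjusted p = 0.0242). The Rag1-/- arrays gave 196 and 123 in GFP+ cells, against 214, 248 and 273 in GFP- cells. These groups did not overlap either, with a difference of -0.65 ± 0.20 (limma, adjusted p = 0.688). Both calls needed all 4 Rag1-sufficient arrays. Without any 1 of them the difference of Snora75 was -3.35 to -2.77 (limma, adjusted p = 0.111 to 0.153) and that of Snora74a -1.54 to -1.37 (limma, adjusted p = 0.165 to 0.191). Snora74a also missed without Rag1-/- GFP- replicate 2 (limma, adjusted p = 0.0615).

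Other box H/ACA sets had differences of similar size in Rag1-sufficient mice that did not pass. Snora33, within the ribosomal protein gene Rps12, was read at 84.2 and 76.8 in Rag1-sufficient GFP+ cells, against 260 and 188 in GFP- cells (-1.45 ± 0.31, limma adjusted p = 0.0898). Snora69, within Rpl39, was read at 154 and 123, against 419 and 337 in GFP- cells (-1.44 ± 0.37, limma adjusted p = 0.141). Snora20, within the chaperonin gene Tcp1, was at 34.8 and 28.1, against 102 and 75.1 in GFP- cells (-1.46 ± 0.39, limma adjusted p = 0.16). In all 3 the groups did not overlap. Their differences in Rag1-/- mice were -0.70, -0.73 and -1.14, and only for Snora20 did the groups stay apart.

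Snora73a and Snora73b, near-identical RNAs within Snhg3 that act in precursor cleavage, cannot be told apart with certainty by short probes. Snora73b was read at 448 and 348 in Rag1-sufficient GFP+ cells, against 1259 and 769 in GFP- cells (-1.31 ± 0.28, limma adjusted p = 0.0908), and Snora73a differed by -1.26 ± 0.35. The differences in Rag1-/- mice were -0.44 and -0.51. Snora3, within Rpl27a, differed by about the same amount in both genotypes. One of its 2 sets was read at 607 and 475 in Rag1-/- GFP+ cells, against 701, 1513 and 1197 in GFP- cells, a difference of -1.01 ± 0.31. In Rag1-sufficient mice the same set was read at 505 and 441 in GFP+ cells, against 1124 and 807 in GFP- cells, a difference of -1.01 ± 0.34 (limma, adjusted p = 0.254).

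Of the remaining box H/ACA RNAs some did otherwise and others went with the class. Above 0 were Snora21 in Rag1-sufficient mice, and Snora23 (0.25) and Snora70 (0.13) in Rag1-/- mice. Snora21, within Rpl23, was higher in Rag1-sufficient GFP+ cells in both of its sets, by 0.56 and 0.68, with groups that did not overlap (29.0% of all sets), and lower in Rag1-/- GFP+ cells, by -0.48 and -0.50, with groups that did. Neither set passed the test in either genotype. The bright Snora23, within the nuclear import gene Ipo7, was read at 1045 and 1201 in Rag1-sufficient GFP+ cells, against 1348 and 1463 in GFP- cells, and in Rag1-/- mice at 1199 and 1201, against 1423, 886 and 820. The brightest, Snora52 within Rplp2, differed by -0.23 and -0.27 in the 2 genotypes, with overlapping groups. Snora7a, another bright set, within Rpl32, was read at 1696 and 2116 in Rag1-/- GFP+ cells, against 2302, 3231 and 2944 in GFP- cells, without overlap (-0.56 ± 0.19, limma adjusted p = 0.688). In Rag1-sufficient mice its groups overlapped, with a difference of -0.28. Snora44 and Snora16a, both within Snhg12, differed by -0.77 and -0.65 in Rag1-sufficient and by -1.08 and -0.53 in Rag1-/- mice, without overlap in either. In all, groups did not overlap with GFP+ lower for 16 of 21 sets in Rag1-sufficient mice (21.2% of all tested sets) and for 12 of 21 in Rag1-/- mice (10.1% of all).

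**Figure D3:**
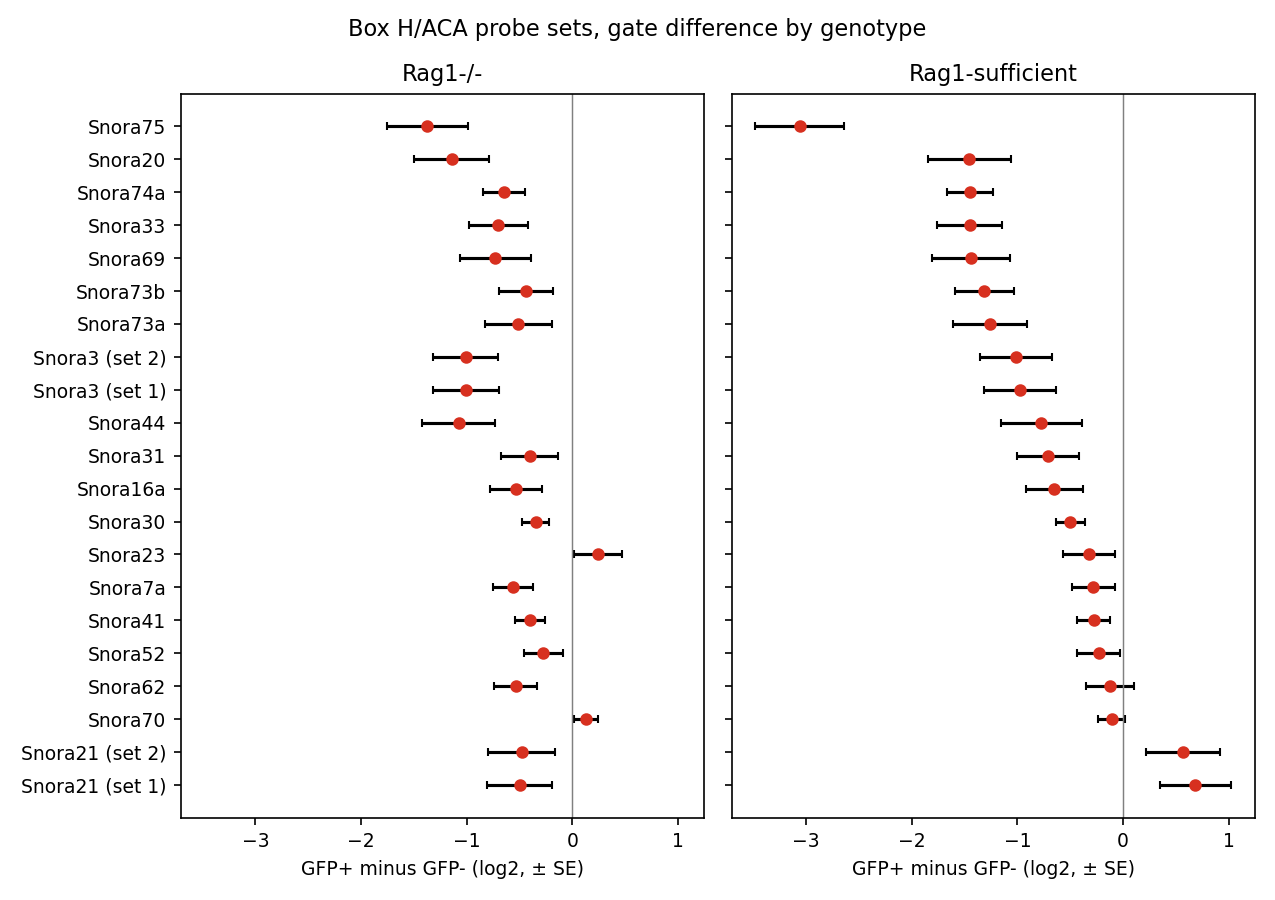
GFP+ minus GFP- difference (log2, with SE bars) of each box H/ACA probe set that passed the filter, with a marker for each genotype. Of the 21 sets, 19 lie below 0 in each genotype, and Snora75 is lowest at -3.06 in Rag1-sufficient mice.

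Box C/D RNAs differed less between the fractions, and 0 of 24 passed the test in either genotype. In Rag1-sufficient mice 15 of 24 were below 0 with a median of -0.19, and 5 had an unadjusted p under 0.05 with GFP+ lower (4.82% of all sets), against 12 of 21 box H/ACA sets. In Rag1-/- mice 22 of 24 were below 0 with a median of -0.37, and 4 had an unadjusted p under 0.05 with GFP+ lower, against 11 of 21 box H/ACA sets. GFP+ lay below GFP- without overlap for 10 of 24 sets in Rag1-sufficient mice (21.2% of all tested sets) and for 6 of 24 in Rag1-/- mice (10.1%). It lay above without overlap for 5 of 24 (29.0% of all) and for 0 (920 of 17445 sets). The difference between the classes was not tested.

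Snord37, within the elongation factor gene Eef2, had the largest box C/D difference in Rag1-sufficient mice. It was read at 90 and 96.1 in GFP+ cells, against 201 and 176 in GFP- cells (-1.01 ± 0.25, limma adjusted p = 0.137), while Eef2 itself was read at 5008 and 4882, against 5741 and 5935. Snord37 in Rag1-/- mice was read at 105 and 153 in GFP+ cells, against 228, 163 and 134 in GFP- cells, with overlap. Snord104 had groups that did not overlap in either genotype, with differences of -0.76 and -1.02. Its values were 617 and 836 in Rag1-/- GFP+ cells, against 885, 1580 and 2193 in GFP- cells.

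Snord118, which lies within no gene of the annotation used and acts in cleavage of the large-subunit precursor, had its larger difference in Rag1-/- mice. It was read at 354 and 377 in Rag1-/- GFP+ cells, against 586, 1018 and 789 in GFP- cells (-1.09 ± 0.26, limma adjusted p = 0.688). In Rag1-sufficient mice it was read at 689 and 551, against 832 and 561 in GFP- cells, with overlap and a difference of -0.15 ± 0.28 (limma, adjusted p = 0.918). Snord53, within the nucleolar gene Wdr43, was at 251 and 256 in Rag1-sufficient GFP+ cells, against 231 and 157 in GFP- cells, and in Rag1-/- mice at 110 and 147, against 173, 208 and 234. Its GFP+ arrays thus stood above GFP- in one genotype and below it in the other, and the difference between the gate effects was -1.09 ± 0.30 (limma, adjusted p = 0.256). Snord8 (-0.48), Snord15a within Rps3 (-0.64), Snord22 within Snhg1 (-0.51) and the bright Snord49b (-0.64) had GFP+ below GFP- without overlap in Rag1-sufficient mice, and overlapped in Rag1-/- mice. Snord15a was read at 64.6 and 63.1 in Rag1-sufficient GFP+ cells, against 108 and 92.7 in GFP- cells (limma, adjusted p = 0.278). The brightest box C/D set, Snord57 within Nop56, ran from 3508 to 7387 over the 9 arrays and differed by -0.43 in Rag1-sufficient and by -0.01 in Rag1-/- mice.

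RNAs within the ribosomal protein gene Rpl13a lay near or above 0 in one genotype and below it in the other. The 4 sets (Snord33, Snord35a and the mixed sets of Snord32a and Snord34 with Rpl13a) differed by -0.01 to 0.56 between GFP+ and GFP- cells in Rag1-sufficient mice and by -0.84 to -0.47 in Rag1-/- mice. Snord35a was read at 342 and 593 in Rag1-/- GFP+ cells, against 450, 840 and 1158 in GFP- cells, and in Rag1-sufficient mice at 797 and 558, against 518 and 396. Snord68 with Rpl13, another ribosomal protein locus, had the widest contrast of the kind. Its values were 172 and 351 in Rag1-/- GFP+ cells, against 263, 614 and 559, and at 437 and 354 in Rag1-sufficient GFP+ cells, against 227 and 143. The difference between its gate effects was -1.98 ± 0.63 (limma, adjusted p = 0.277), which did not pass.

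Among the other mixed sets, the 4 sets of the imprinted brain-enriched Snord116 cluster, within Snhg14, varied most between replicates and read nearly the same values as each other. Over the 4 sets they were at 54.6 to 61.4 and 248 to 254 on the Rag1-/- GFP+ arrays, against 322 to 332, 569 to 611 and 379 to 389 on the Rag1-/- GFP- arrays. In Rag1-sufficient mice they were at 140 to 148 and 83.9 to 93.0 in GFP+ cells, against 97.5 to 122 and 384 to 421 in GFP- cells. The GFP- arrays of this genotype differed from each other by more than the fractions did. One set differed by -1.82 ± 0.67 in Rag1-/- mice and by -0.98 ± 0.74 in Rag1-sufficient mice, and 0 of the 4 passed in limma, with all 4 at an unadjusted p under 0.05 in Rag1-/- mice alone. These copies share sequence, so they count as 1 signal. Snord14c and Snord14d, box C/D RNAs that act in small-subunit precursor cleavage, share 2 sets with Hspa8. One set was read at 501 and 507 in Rag1-sufficient GFP+ cells, against 808 and 867 in GFP- cells (-0.73 ± 0.17, limma adjusted p = 0.122). That set overlapped in Rag1-/- mice between fractions.

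Of the 3 Cajal body RNAs 0 passed in any comparison in limma, and 0 had an unadjusted p under 0.05. Scarna13, within Snhg10, was read at 441 and 1248 in Rag1-/- GFP+ cells, against 820, 1160 and 1117 in GFP- cells, and at 1646 and 1081 in Rag1-sufficient GFP+ cells, against 1115 and 700. Its replicates differed as widely as its groups. Scarna17 differed by 0.21 in Rag1-sufficient and by -0.70 in Rag1-/- mice, with overlap in both. Scarna8, within Haus6, stayed between 42.6 and 56.6 on all arrays.

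Host gene RNAs gave no calls between fractions. Of the 4 sets that carry a Snhg symbol alone, 0 passed in any comparison in limma, 1 had an unadjusted p under 0.05 (Snhg17, Rag1-sufficient gate), and their median gate difference was -0.05 in Rag1-sufficient and 0.12 in Rag1-/- mice. Snhg17 was read at 134 and 110 in Rag1-sufficient GFP+ cells, against 206 and 173 in GFP- cells (-0.64 ± 0.20, limma adjusted p = 0.216). Snhg5 was read at 301 and 291, against 258 and 249, a difference of 0.22. Snhg16 and Snhg11 stayed between 54.0 and 92.5 on all arrays.

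The annotation placed 70 of the 71 snoRNAs and Cajal body RNAs named by the members within the span of a host, in 48 cases of protein-coding genes only and in 22 of a noncoding host. Of the 58 distinct hosts 33 were measured by a set of their own and 32 passed the filter. Each host was read by the brightest set that carried its symbol alone. Whether that set reads the locus that holds the snoRNA was not checked by position. For several box H/ACA hosts, among them Rpl27a, Rps12, Rpl23, Tpt1, Rpsa and Rpl10, its probe set number lay far from the snoRNA's. Such sets may read another locus, so the pairs below need not set a snoRNA against its own host. In limma 0 of the 32 passed in either gate comparison, with medians of 0.05 in Rag1-sufficient and -0.18 in Rag1-/- mice. At an unadjusted p under 0.05 with GFP+ lower were 1 (4.82% of all sets) and 3 (4.79% of all sets), and 0 were higher. Hosts were below 0 for 14 of 32 in Rag1-sufficient mice (46.4% of all sets) and for 25 of 32 in Rag1-/- mice (52.0% of all sets). Among box H/ACA sets with a single measured host (14 sets, 12 hosts), the snoRNA's difference lay below its host's in 12 of 14 pairs in Rag1-sufficient mice, with medians of -0.41 for snoRNAs and 0.10 for hosts. For the Rag1-/- pairs it did so in 11 of 14, with medians of -0.49 and -0.18. For box C/D sets (10 sets, 9 hosts) the counts were 7 of 10 (medians -0.43 and -0.03) and 5 of 10 (medians -0.38 and -0.27). Spearman's rho between snoRNA and host differences, over pairs that share arrays, was 0.64 for box H/ACA and 0.71 for box C/D in Rag1-sufficient mice, and 0.44 and 0.05 in Rag1-/- mice. Gas5, a noncoding host outside the name rule that holds Snord47, differed by -0.14 and -0.21.

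**Figure D4:**
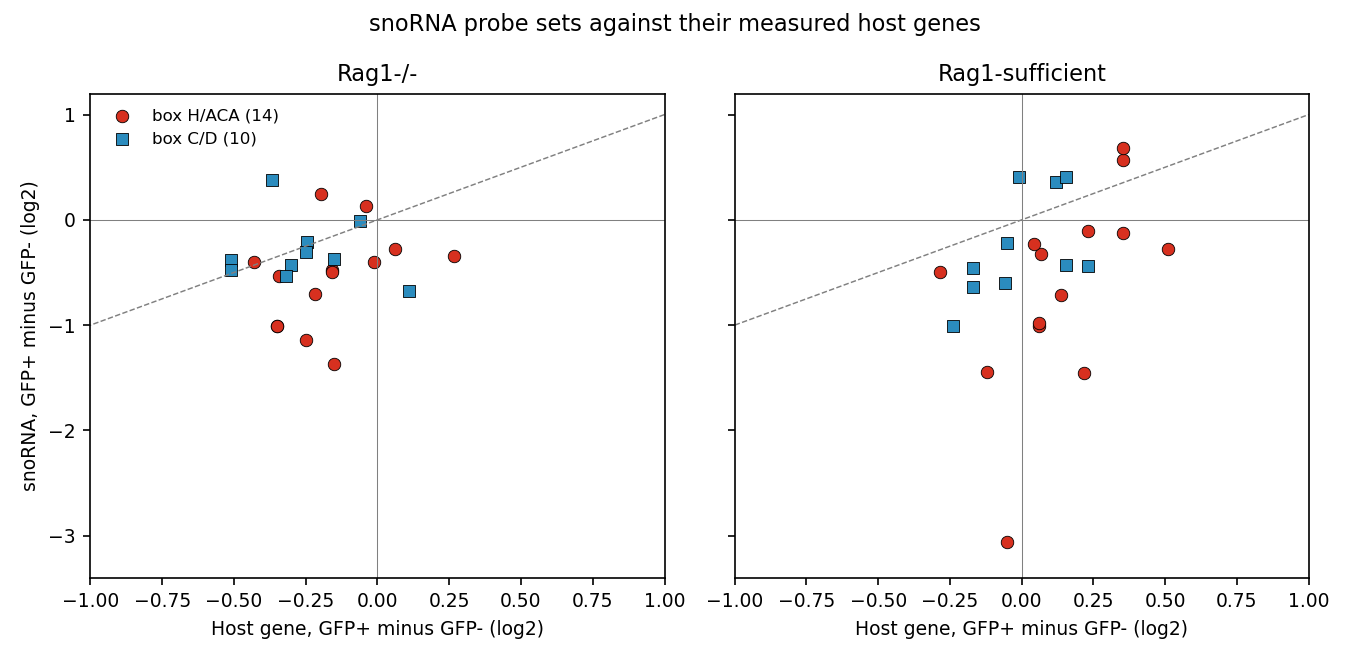
Gate difference (log2, GFP+ minus GFP-) of each snoRNA on the y axis against that of its single measured host gene on the x axis, for both genotypes. Each host is read by the brightest set of its symbol, which may read another locus. Of the 14 box H/ACA points 12 lie below the line of equal differences in Rag1-sufficient mice and 11 in Rag1-/- mice.

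Genotype was compared within each fraction. Among GFP+ cells, Rag1-/- against Rag1-sufficient, 0 members passed in limma (0.246% of all sets), 7 had an unadjusted p under 0.05 (6.82% of all sets), and the median was 0.18 for box H/ACA, -0.02 for box C/D and -0.02 for all sets. The smallest adjusted p belonged to Snord53 (-0.99 ± 0.22, limma adjusted p = 0.233). Snora75 was higher by 0.98 ± 0.42 in Rag1-/- cells, at 212 and 79.5 against 53.2 and 80.3, with overlap (limma, adjusted p = 0.716).

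Among GFP- cells 0 members passed in limma (0.143% of all sets) and 5 had an unadjusted p under 0.05 (17.3% of all sets), with medians of 0.02 for box H/ACA and 0.17 for box C/D against 0.00 for all sets. Snora75 was read at 283, 429 and 317 in Rag1-/- GFP- cells, against 622 and 492 in Rag1-sufficient GFP- cells, and the groups did not overlap (17.6% of all sets lower in this way; -0.71 ± 0.38, limma adjusted p = 0.365). The difference between the 2 gate effects passed in limma for 0 members, as for all tested sets (0% called), with 12 members at an unadjusted p under 0.05 (13.6% of all sets). For Snora75 it was 1.69 ± 0.57 (limma, adjusted p = 0.284) and for Snora74a 0.80 ± 0.29 (limma, adjusted p = 0.309). Over the 4 groups together, the moderated F-test of limma called 1 member, Snora75 (adjusted p = 0.0385), against 0.797% of all sets.

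Single arrays stood apart for the snoRNAs as a group. Rag1-/- GFP- replicate 1 held the lowest value of its 3 replicates for 51 of 67 members (76.1%), against 41.1% of all sets. Rag1-sufficient GFP- replicate 1 held the highest of its pair for 58 of 67 (86.6%), against 55.5%, and Rag1-sufficient GFP+ replicate 1 did so for 51 of 67 (76.1%), against 54.9%. The median box H/ACA deviation from each set's mean over arrays was -0.14 and -0.36 in Rag1-/- GFP+ samples, against -0.03, 0.35 and 0.45 in Rag1-/- GFP- samples. It was -0.25 and -0.52 in Rag1-sufficient GFP+ samples, against 0.52 and 0.11 in Rag1-sufficient GFP- samples. All GFP- arrays thus lay above all GFP+ arrays for this class, while the median over all tested sets rounded to between -0.01 and 0.01 on every array. For box C/D the values were -0.37 and -0.01, against -0.12, 0.29 and 0.37, and -0.05 and -0.28, against 0.20 and -0.13, so that GFP+ and GFP- arrays overlapped. What sets these arrays apart was not tested.

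**Figure D5:**
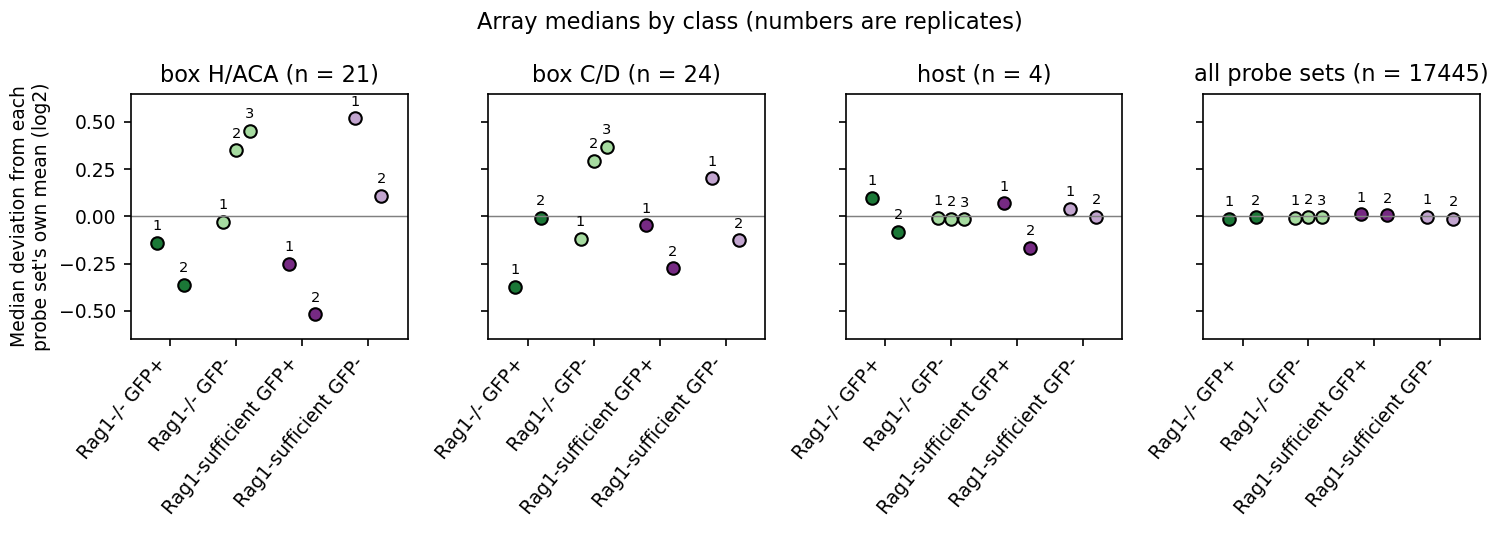
Median deviation (log2) of box H/ACA, box C/D, host gene and all tested sets from their means over all arrays, 1 point per array marked with its replicate number, with GFP+ left of GFP- in each genotype. For box H/ACA the 4 GFP+ arrays lie between -0.52 and -0.14 and the 5 GFP- arrays between -0.03 and 0.52.

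Length was a property the name rule did not use. The box H/ACA RNAs were 61 to 205 bases long by the annotation (median 128) and the box C/D RNAs 53 to 148 (median 75). Within box H/ACA, Spearman's rho of length with the gate difference was 0.20 in Rag1-sufficient and 0.35 in Rag1-/- mice, over 21 sets that share arrays. Within box C/D it was -0.08 and -0.16 over 24 sets.

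Genes of the proteins that build these RNAs gave no calls between fractions. Of the 6 box H/ACA core and assembly genes 0 passed in limma in either gate comparison, and 0 had an unadjusted p under 0.05, with medians of 0.09 in Rag1-sufficient and -0.06 in Rag1-/- mice. Dkc1, which encodes the pseudouridine synthase dyskerin, differed by 0.01 and 0.06, Nop10 by 0.52 and -0.52, and Nhp2 by 0.33 and -0.35. Of the 11 box C/D core and assembly genes past the filter 0 were called by limma, with medians of 0.15 and -0.17. At an unadjusted p under 0.05, 2 were higher in Rag1-sufficient mice (1423 of 17445 sets) and 1 lower in Rag1-/- mice (4.79% of all sets). The 11 genes were above 0 for 10 of 11 in Rag1-sufficient mice and below 0 for 10 of 11 in Rag1-/- mice. The assembly factors Pih1d1 and Nufip1 differed by 0.46 and 0.50 in Rag1-sufficient mice, and the core gene Nop58 by -0.54. Fbl, the methyltransferase fibrillarin, differed by 0.09 and -0.21, and Snu13, which binds the box C/D motif, by 0.43 and -0.56. The 24 genes of the nucleolus and RNA polymerase I gave 0 calls in limma and medians of 0.06 and -0.14. At an unadjusted p under 0.05, 2 were higher in Rag1-sufficient mice (1423 of 17445 sets) and 4 lower in Rag1-/- mice (4.79% of all sets). The 24 genes were above 0 for 17 of 24 in Rag1-sufficient mice and below 0 for 19 of 24 in Rag1-/- mice. Imp4, a factor of small-subunit precursor processing, was at 0.44 and -0.39.

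Of 19 genes for trimming and turnover of snoRNAs 1 rose, Exosc3, a cap subunit of the RNA exosome. It was read at 98.2 and 106 in Rag1-sufficient GFP+ cells, against 64.9 and 71.5 in GFP- cells (0.57 ± 0.09, limma adjusted p = 0.0281). In Rag1-/- mice it differed by -0.02 ± 0.08, at 73.0 and 78.0 in GFP+ cells, against 77.1, 74.7 and 78.0 in GFP- cells. The other 18 genes of that list did not pass, and the median of all 19 was 0.09 and -0.04 in the 2 genotypes. Proliferation markers moved in the opposite direction to the snoRNAs in Rag1-sufficient mice: 2 of 9 rose in GFP+ cells (Nusap1 by 1.33 and Plk1 by 0.85), with a median of 0.50, against -0.09 in Rag1-/- mice, and their part in the snoRNA differences was not tested.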

How the data were processed

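The deposited values are linear intensities, 1 for each probe set on each array. The submitters' processing notes name MAS5, with its role and version, the scaling of arrays and the build not given in the sources used here. Biotin-labelled single-stranded DNA was used as target, per the labels' protocols. Array medians were 74.1 to 77.6, and 9 arrays limit the precision.

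Platform annotation gave 1 symbol to 21425 probe sets, several to 1399 and none to 2098. Values were used as log2(intensity + 1), which understates changes of dim sets, and the lowest 30% by mean log2 (geometric mean under 41.6) were left out. The remaining 17445 sets were fitted with limma 3.58.1 in R 4.3.3 as 4 group means (lmFit, eBayes with trend, 5 residual degrees of freedom), two-sided, with Benjamini-Hochberg adjustment over all sets and a threshold of 0.05. On simulated data of 17445 sets, log2 changes of 1 were recovered at 80.6% and of 2 at 99% in the Rag1-sufficient gate comparison, and at 85.4% and 98.8% in the Rag1-/- one. The simulated noise was normal and independent between sets, whereas members shifted together on single arrays. These rates therefore need not hold for the real arrays, where 0 sets passed in the Rag1-/- gate comparison.

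Members, gene lists and the naming rule were chosen with earlier results of these data known. Named were all called members, in each class the 6 with the smallest F-test p and the 3 brightest, every Snhg set and hosts of named snoRNAs. Also named were list genes called between GFP+ and GFP- cells or else the 3 with the smallest p, and RNAs within Ncl. Of these, Snora28 with Eif5 is named only among the alternatives, and hosts Chd8, Gm26590, 2410006H16Rik and Gm41774 are named only here. List genes that were not called, or were called only between genotypes, are named in part. Snora16a, Snora44, Snora70, Cpa3, Snora3, Snora21, Snora73a, Snord104, Snord35a, Snord87, Snord7, Snord96a, Dkc1, Fbl and the Rpl13a sets were named after their values were seen. Hosts came from RefSeq spans (GRCm38.p6) without strand. Whether same-numbered arrays share a mouse or a sort is not known, and the main fit did not pair them. Their deviations from group means over all tested sets correlated at -0.507 to 0.237, which cannot decide this. Alternatives were the filter, the offset, the trend, quantile normalization, array weights, the replicate block, a fit on 2 groups and leaving out each array.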

Additional observations from a re-analysis of the deposited data

How the results depend on the processing

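The count of members called between GFP+ and GFP- cells of Rag1-sufficient mice (2) became 15 with array weights and 0 with the replicate block, where the adjusted p (limma) was 0.0538 for Snora75 and 0.0541 for Snora74a. The 15 were 8 box H/ACA, 4 box C/D, 1 host and 2 mixed sets. Calls over all probe sets were 140 as reported, 1290 with array weights and 73 with the block. The F-test count (1) became 0 without a filter, without the trend, with quantile normalization and with the replicate block, 2 with a filter stricter than 30% and 8 with array weights. The Rag1-/- against Rag1-sufficient count in GFP- cells (0) became 3 with array weights, for Snord68 with Rpl13 and both sets of Snord14 with Hspa8. The cause of these changes was not tested.

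Leaving out 1 array at a time, the Rag1-sufficient gate count ran from 0 to 3, the F-test count from 0 to 2 and the interaction count from 0 to 1 (Snora75, 2.39, limma adjusted p = 0.0403, without Rag1-/- GFP+ replicate 2). The box H/ACA count below 0 ran from 18 to 19 in Rag1-sufficient and stayed at 19 in Rag1-/- mice. The box C/D count ran from 12 to 18 and from 19 to 22.

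Among the named sets, signs turned only for uncalled gate differences. With an offset of 16 Snhg16 was at 0.0012 in Rag1-sufficient and Snord22 at 0.00014 in Rag1-/- mice. With quantile normalization Snhg16 was at 0.0242 in Rag1-sufficient mice, and in Rag1-/- mice Snord49b was at 0.0755, Snord57 at 0.0702 and the Snord14 sets at 0.0535 and 0.0387. Snord22 was at 0.0300 with array weights, and with the replicate block Snord49b was at 0.0293 and Snord22 at 0.0837, all in Rag1-/- mice. With single arrays left out, the Rag1-sufficient ranges were -0.43 to 0.14 for Snord118, -0.30 to 0.29 for Snhg16, -0.22 to 0.063 for Snora28 with Eif5 and -0.13 to 0.54 for Scarna17. The Rag1-/- ranges were -0.30 to 0.064 for Snord49b, -0.13 to 0.38 for Snhg16, -1.21 to 0.29 for Scarna13, -0.27 to 0.27 for Snord22, -0.12 to 0.12 for Snord57, -0.22 to 0.046 and -0.21 to 0.013 for the Snord14 sets and -0.019 to 0.38 for Snhg5.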

Other observations

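The 12 member probe sets under the filter had values of 8.96 to 69.4 on single arrays and were not tested.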
